A study of Mus musculus with 12 samples.

Results

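The fibrillar collagens are the chains that assemble into the collagen fibrils of connective tissue. Their genes were taken from the deposited count table by symbol, as Col1a1, Col1a2, Col3a1, Col5a1, Col5a2, Col5a3, Col11a1 and Col27a1, and all 8 were found among its 32544 genes. All 8 had enough reads in fibroblasts to be tested. Polyadenylated RNA of mouse cells had been sequenced in 12 libraries, 3 in each of 4 groups. In 2 groups the cells were bone marrow-derived macrophages (BMDM), labelled PHD2 WT or PHD2cko and harvested 24 h after seeding. The other 2 groups were 3T3 cells, a line of mouse fibroblasts, kept for 72 h in medium that such BMDMs, of either label, had conditioned. PHD2, encoded by Egln1, is an oxygen-dependent prolyl hydroxylase whose loss stabilises the transcription factor HIF. According to the study's methods, PHD2cko mice carry a conditional Egln1 deletion driven by lysozyme M Cre, which acts in myeloid cells. The controls, called PHD2 WT, carry the Cre as well. All BMDMs were grown with 15% L929-conditioned medium, which was also in the medium given to the fibroblasts. The fibroblasts themselves carried no targeted allele and were 1 cell line, starved of serum before the medium was added. The oxygen level at which the medium for the sequenced fibroblasts was prepared is not given in the sources used here.

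The libraries held 15516465 to 25199770 counts each. Egln1 was higher, not lower, in the BMDM libraries labelled PHD2cko, at 69.5 ± 1.77 against 55.3 ± 0.574 counts per 1e6 (CPM; SD, n = 3; log2 fold change 0.33, edgeR adjusted p = 0.00203), so groups are named here by their labels. These are counts per gene, and whether the deleted exon was read could not be seen in them. Among the fibroblasts, replicate 1 in WT medium stood apart, where a chi-square of its counts, per gene compared less 1, came to 24.8 and 26.9 against the other WT replicates, which differed from each other by 2.35. The 12 fibroblast markers summed to 7369 to 7764 CPM in the 6 fibroblast libraries, a sum to which Vim and S100a4, expressed in BMDMs too, gave much, and by edgeR 2 of them were higher and 1 lower in medium labelled PHD2cko. The 23 macrophage markers (among them Csf1r, Lyz2 and Adgre1) summed to 42.1 to 43.7 CPM in fibroblasts in WT medium, and to 988, 234 and 876 CPM in replicates 1, 2 and 3 in medium labelled PHD2cko, which is 0.529 to 2.23% of their level in BMDMs. Of the 23, 22 passed the test as higher in medium labelled PHD2cko, Adgre1 and C1qa were at 0 in 1 WT library each, and no marker was at 0 in medium labelled PHD2cko. No source says that the 3 libraries of a group came from separate cultures or animals, so p-values measure only the spread between these libraries.

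A collagen molecule is a rope of 3 chains wound around each other. Each chain repeats a triplet that begins with glycine, the smallest amino acid, because no larger side chain fits on the axis of the rope. Fibrillar collagens carry this repeat in a long uninterrupted stretch flanked by propeptides, which are cut off outside the cell so that the molecules can pack into fibrils. Type I, built of Col1a1 and Col1a2, is the bulk of the fibrils of skin, bone, tendon and the fibrous cap of an atherosclerotic plaque. Type III is built of Col3a1 alone, shares fibrils with type I in extensible tissues such as the vessel wall and is prominent in early wounds. Type V (Col5a1, Col5a2 and, in some molecules, Col5a3) starts fibrils and limits their width. Col11a1, a chain of type XI, does the like in cartilage, and Col27a1 forms type XXVII, a cartilage-associated collagen with a shorter helix.

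The repeat can be read directly in the genes. Many exons of fibrillar collagens are 54 bases long and code for 6 glycine triplets, and 1 such exon of each member, the middle one in its helix, is shown because it carries the feature that all members share. The exons come from the GENCODE annotation on GRCm38 and are written 5′ to 3′ on the strand of the gene, with the glycine codons in capitals.
Col1a1, exon 26 of 51, chr11:94944355-94944408, + strand: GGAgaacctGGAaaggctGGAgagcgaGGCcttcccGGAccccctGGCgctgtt
Col1a2, exon 27 of 52, chr6:4524117-4524170, + strand: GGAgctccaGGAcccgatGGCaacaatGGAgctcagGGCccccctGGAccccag
Col3a1, exon 26 of 51, chr1:45334761-45334814, + strand: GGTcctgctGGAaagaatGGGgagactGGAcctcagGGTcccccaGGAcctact
Col5a1, exon 37 of 66, chr2:27998726-27998779, + strand: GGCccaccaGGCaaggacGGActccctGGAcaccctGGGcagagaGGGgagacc
Col5a2, exon 29 of 54, chr1:45403116-45403169, - strand: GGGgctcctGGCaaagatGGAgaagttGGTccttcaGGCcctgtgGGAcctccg
Col5a3, exon 38 of 67, chr9:20785573-20785626, - strand: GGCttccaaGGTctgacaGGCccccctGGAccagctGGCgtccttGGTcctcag
Col11a1, exon 38 of 67, chr3:114151375-114151428, + strand: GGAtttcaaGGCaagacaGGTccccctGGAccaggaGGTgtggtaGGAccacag
Col27a1, exon 26 of 61, chr4:63293201-63293254, + strand: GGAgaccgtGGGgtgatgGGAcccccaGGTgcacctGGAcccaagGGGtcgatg

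Each printed exon starts with a glycine codon and holds 6 of them at fixed spacing, while the codons between them differ. A proline codon (CCN) stood directly after 20 of the 48 glycine codons printed. The longest uninterrupted run of glycine triplets was 337 to 344 in 7 of the members, 344 of them in Col3a1, and 217 in Col27a1. These runs took 74.1% of the codons of Col1a2 and 35.3% of those of Col27a1, the highest and the lowest share. Between 35 and 48 exons of a gene lay wholly inside the run, 21 (Col1a1) to 31 (Col5a3 and Col11a1) of them with exactly 54 bases, and in every member all of them were multiples of 9 bases, so that no exon border breaks a triplet. Col5a3 and Col11a1, close relatives with 67 exons each, matched at 40 of 54 bases in the exons printed, the most of any pair. The other pairs matched at 21 (Col1a1 and Col11a1) to 35 bases (Col1a2 and Col3a1), with Col1a1 and Col3a1, of 51 exons each, at 33. The exons were picked by their place in each gene and were not aligned.

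The genes lie on 7 chromosomes. Col3a1 (chr1:45311538-45349706, + strand) and Col5a2 (chr1:45374321-45503282, - strand) are neighbours that point towards each other, with 24614 bases and no annotated gene between their ends. Col1a1 lies at chr11:94936224-94953042 and Col1a2 at chr6:4504814-4541544, both on the + strand. Col5a1 (chr2:27886425-28039514, + strand) overlaps 2 annotated transcripts of the opposite strand, 2810430I11Rik and Gm13372. Col5a3 (chr9:20770050-20815067, - strand) overlaps 1, Gm26274. These overlaps are of whole gene spans, and shared exons were not looked for. Whether strand was used in counting is not stated either, so whether any reads are shared with these antisense genes is not known here. Annotated genes of the same strand overlap the spans of Col1a2 (Gm43921), Col3a1 (Gm47302), Col5a2 (Gm38211) and Col27a1 (Mir455). Whether these share reads was not examined. Col11a1 lies at chr3:114030540-114220718 and Col27a1 at chr4:63214004-63334991, both on the + strand.

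Fibroblasts made the 8 chains at levels that spanned more than 2 orders of magnitude. To compare genes, CPM were divided by the length of the annotated transcript in kilobases. In WT medium Col1a2 was highest, at 1567 ± 52.6 CPM per kilobase (SD, n = 3). Col3a1 followed at 779 ± 40.3 and Col1a1 at 727 ± 47.4 CPM per kilobase, and these neighbours overlapped between libraries. Col5a2 stood at 112 ± 6.01 and Col5a1 at 51.6 ± 4.09 CPM per kilobase. The least abundant chains were Col27a1 at 5.74 ± 0.443, Col5a3 at 3.72 ± 0.522 and Col11a1 at 3.03 ± 0.164 CPM per kilobase, and no other neighbours in this order overlapped. The order of the first 3 depends on the length used. Over the length of all annotated exons joined, the levels in WT medium were 674 for Col1a2, 657 for Col1a1 and 442 CPM per kilobase for Col3a1.

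In medium labelled PHD2cko the same scale put Col1a2 first at 1623 ± 19.3 CPM per kilobase, with Col3a1 at 1425 ± 64.3 and Col1a1 at 821 ± 17, all without overlap. Within each of the 6 fibroblast libraries, in either medium, Col3a1 stood above Col1a1 on this scale, by a wider margin in medium labelled PHD2cko. Col27a1 at 6.74 ± 0.309 and Col5a3 at 6.30 ± 0.296 CPM per kilobase were the pair that overlapped here. Over the joined exons Col3a1 came first in this group, at 808, before Col1a1 at 742 and Col1a2 at 699 CPM per kilobase. Col5a3 then also came before Col27a1, at 5.66 against 3.94.

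BMDMs held almost none of these transcripts. Over the 6 BMDM libraries Col1a1 had 6 to 19 counts a library and Col1a2 6 to 31. Col3a1 had 1 to 13 counts, Col5a1 2 to 4 and Col5a2 0 to 8. Col5a3 had 1 count in 1 library and 0 in the other 5, and Col11a1 had 0 to 2 counts. As a percentage of the CPM in fibroblasts in WT medium, mean BMDM levels were 0.0145% for Col1a1, 0.0155% for Col1a2, 0.0115% for Col3a1 and 0.253% for Col11a1. Col27a1 was the exception, with 10 to 19 counts a BMDM library and 2.00% of the fibroblast level. Of the fibroblast markers, Twist1 was at 0 counts in all 6 BMDM libraries, although Vim and S100a4, which macrophages express too, kept the summed fibroblast markers at 36.8 to 39.1% of the fibroblast level.

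**Figure D1:**
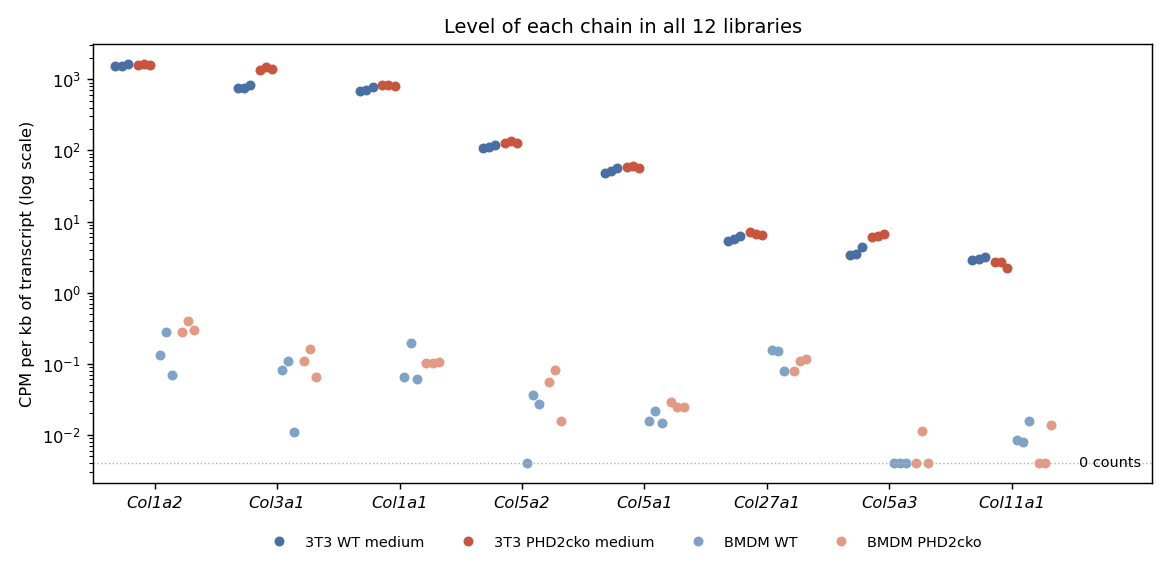
Level of each fibrillar collagen gene in all 12 libraries, in CPM per kilobase of transcript on a log axis, with 1 point per library, coloured by group and libraries without a count on the dotted line. In fibroblasts Col1a2, Col1a1 and Col3a1 lie far above Col27a1, Col5a3 and Col11a1, and BMDM libraries lie far below the fibroblast libraries for all 8 genes.

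The comparison of main interest was between fibroblasts in the 2 media, which asks whether medium of macrophages labelled PHD2cko changes collagen expression. Col3a1 and Col5a3 rose by more than 1.5-fold, Col5a1 passed the test narrowly with a small rise, and type I chains did not pass it. Of the 8 genes, 3 were higher at an adjusted p under 0.05 (edgeR quasi-likelihood test over 14285 genes), where 8.93% of all genes tested were higher. The third call, Col5a1, was lost in 3 of 8 alternative analyses and without any of 4 of the 6 fibroblast libraries. Lower by the same test were 0 of 8, where 6.75% of all genes were lower. These background counts, 1276 and 964 genes, were 824 and 495 without replicate 1 labelled PHD2cko, 797 and 463 without replicate 3, 739 and 755 without genes of macrophage type (a BMDM level 10 or more times the fibroblast level in WT medium), and 566 and 346 in the fibroblast libraries alone. At an unadjusted p under 0.05, 1 member was lower (Col11a1), limma-voom called that 1 and DESeq2 called 0. The fitted log2 fold change was above 0 for 7 of 8 members, with a median of 0.19 beside -0.0046 over all genes. The levels in the 2 media did not overlap between libraries for 6 members that were higher in medium labelled PHD2cko, against 15.4% of all genes, and for 1 that was lower, against 16.5% of all genes. In these bulk samples, a different share of cells that express a chain and a different amount of its RNA per cell cannot be told apart.

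Of the 8 members, the chain of type III collagen had the largest fitted change. Col3a1 was at 4216, 4196 and 4594 CPM in WT medium and at 7592, 8305 and 7893 CPM in medium labelled PHD2cko. The lowest library in medium labelled PHD2cko lay well above the highest in WT medium. The mean rose from 4335 ± 224 to 7930 ± 358 CPM (SD, n = 3), 1.83-fold, a log2 fold change of 0.87 with a standard error of 0.132 (edgeR adjusted p = 8.4e-04). The 6 libraries held 82930 to 163106 counts of it, so counting error is small beside the spread between libraries. The log2 fold change lay between 0.84 and 0.92 when any 1 library was left out, and was 0.87 without the WT replicate that stood apart. The macrophage markers were higher in the same libraries (42.1 to 43.7 CPM in WT medium, 234 to 988 CPM in medium labelled PHD2cko), and BMDMs held 1 to 13 counts of Col3a1 a library.

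The sequence before the start of Col3a1 differs from that of most genes, and is shown beside that of Col5a3, the other member that rose by more than 1.5-fold. Both are the 250 bases upstream of the gene start in the RefSeq annotation of GRCm38.p6. The set of promoters used here held 6 of the 8 members. Capitals mark matches on either strand to 6 short motifs. The motifs were CCAAT, known to bind the factor NF-Y, TATAAA, the box of the TATA-binding protein, and GGGCGG, known from Sp1 sites. They also included ACGTG with its variant GCGTG, known from HIF sites, as well as CAGAC, known to bind Smad proteins.
Col3a1, chr1:45311288-45311537, + strand: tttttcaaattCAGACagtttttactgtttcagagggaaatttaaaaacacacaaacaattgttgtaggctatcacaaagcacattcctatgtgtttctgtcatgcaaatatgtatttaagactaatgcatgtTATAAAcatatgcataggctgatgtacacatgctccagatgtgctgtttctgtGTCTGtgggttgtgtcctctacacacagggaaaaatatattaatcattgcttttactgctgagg
Col5a3, chr9:20815068-20815317, - strand: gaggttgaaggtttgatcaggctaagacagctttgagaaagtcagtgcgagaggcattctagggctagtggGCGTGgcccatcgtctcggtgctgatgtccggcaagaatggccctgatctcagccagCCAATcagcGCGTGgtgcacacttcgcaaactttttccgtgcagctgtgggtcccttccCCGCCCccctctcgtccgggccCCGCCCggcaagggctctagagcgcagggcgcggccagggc

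These windows share little. That of Col3a1 has 35.2% G and C and no CpG, where 5.41% of the 32851 promoters in the set have as little G and C and 7.87% have no CpG. It holds 1 TATAAA, a motif found in 12.4% of all promoter windows, and CAGAC at 2 places, found in 42.2%. The window of Col5a3 has 62.8% G and C and 17 CpG. It holds 1 CCAAT (33.8% of all windows), 2 GCGTG (28.2%) and GGGCGG at 2 places, on the opposite strand (32.7%). Among the 6 members with a window, CAGAC and GGGCGG occurred in 5 each, CCAAT in 3, ACGTG in 2, and TATAAA and GCGTG in 1 each. A match is a run of letters and does not show that a factor binds there.

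The chains of type V differed from each other. Col5a3, the rarest of them, was at 20.7, 21.1 and 26.4 CPM in WT medium and at 36.9, 38.3 and 40.5 CPM in medium labelled PHD2cko. All libraries in medium labelled PHD2cko were above all in WT medium. The mean rose from 22.7 ± 3.19 to 38.5 ± 1.81 CPM (SD, n = 3), 1.70-fold, with a log2 fold change of 0.77 and a standard error of 0.101 (edgeR adjusted p = 6.8e-04). Leaving out any 1 library kept the log2 fold change between 0.71 and 0.88 and past the threshold.

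Col5a1, the chain that nearly all type V molecules contain, was at 400, 433 and 469 CPM in WT medium and at 487, 515 and 477 CPM in medium labelled PHD2cko. The groups did not overlap, but the highest WT library and the lowest library labelled PHD2cko lay close together. The mean was 434 ± 34.3 against 493 ± 19.7 CPM (SD, n = 3), a rise of 1.14-fold (log2 fold change 0.19, standard error 0.0571, edgeR adjusted p = 0.0454). This call was just inside the threshold. It was lost without WT replicate 2 (edgeR adjusted p = 0.0971) or without replicate 1 (0.0935), 2 (0.119) or 3 (0.0742) labelled PHD2cko, and in the fibroblast libraries alone (0.153).

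Col5a2, the usual partner of Col5a1, was at 706, 744 and 785 CPM in WT medium and at 837, 887 and 829.9 CPM in medium labelled PHD2cko. The groups did not overlap, yet the difference (log2 fold change 0.19, standard error 0.101) was not past the threshold in edgeR (adjusted p = 0.230). The fitted value was as large as that of Col5a1 with a wider error.

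Type I chains gave no call by edgeR, although DESeq2 called Col1a1 higher (adjusted p = 0.0181). Col1a2 was at 8191, 8241 and 8701 CPM in WT medium and at 8616, 8800 and 8628 CPM in medium labelled PHD2cko, and the groups overlapped. Its log2 fold change was 0.05 with a standard error of 0.135 (edgeR adjusted p = 0.845). Col1a1 was at 4081, 4226 and 4624 CPM in WT medium and at 4939, 4919 and 4756 CPM in medium labelled PHD2cko. It was higher in all 3 libraries labelled PHD2cko than in any WT library, with a log2 fold change of 0.18 and a standard error of 0.113 (edgeR adjusted p = 0.329). A miss of the threshold does not show that type I chains were equal between the media.

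The remaining chains are minor ones in these cells. Col27a1 was at 40.6, 43.2 and 47.3 CPM in WT medium and at 54, 50.01 and 49.84 CPM in medium labelled PHD2cko. These groups did not overlap, and the log2 fold change of 0.23 (standard error 0.0764) missed the threshold narrowly (edgeR adjusted p = 0.0588). Col11a1 was the only member whose fitted change was below 0. It was at 22.1, 23.0 and 24.6 CPM in WT medium and at 20.5, 20.5 and 17.2 CPM in medium labelled PHD2cko. The groups did not overlap, and the log2 fold change was -0.26 with a standard error of 0.0995 (edgeR adjusted p = 0.100).

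**Figure D2:**
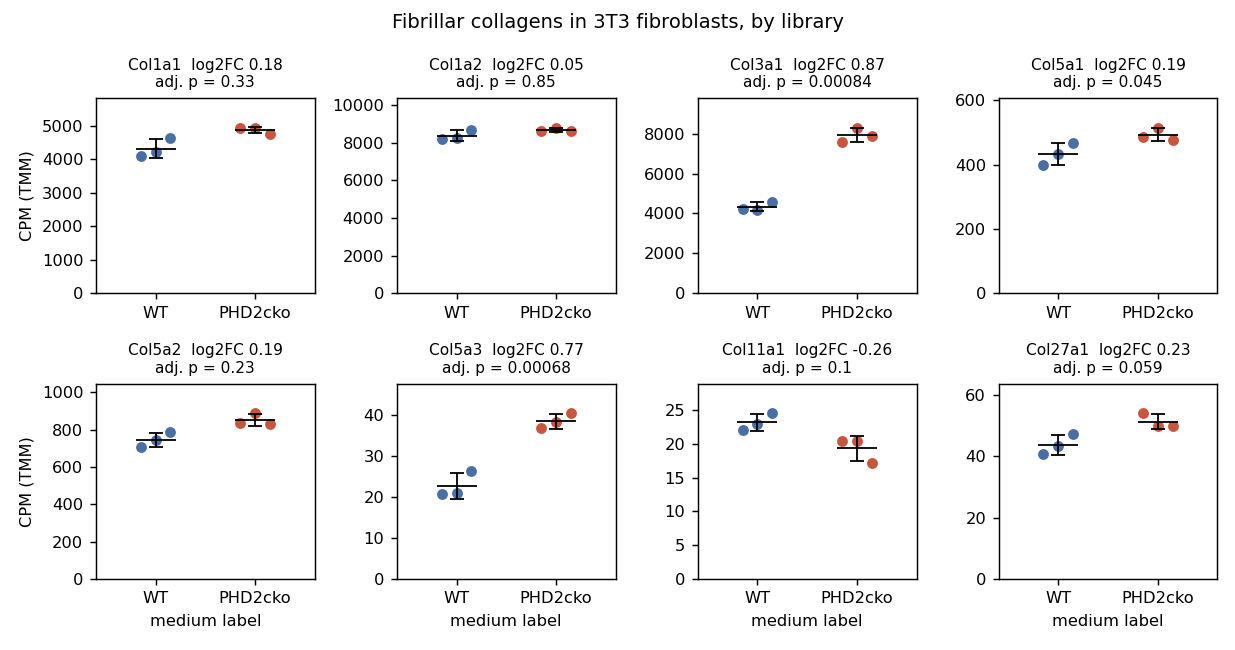
CPM of each fibrillar collagen gene in the 6 fibroblast libraries, with 1 panel per gene, 1 point per library and a line at each group's mean with its SD. Col3a1 (4335 against 7930 CPM) and Col5a3 (22.7 against 38.5 CPM) show the widest gaps between the media, Col1a2 overlaps, and Col11a1 lies lower in medium labelled PHD2cko.

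How firm each value is differed between the chains. Col3a1 and Col5a3 were past the threshold in all 8 alternative analyses and in all 6 analyses that left out 1 library. Over the alternatives, the log2 fold change of Col3a1 ran from 0.87 to 0.89 and that of Col5a3 from 0.77 to 0.78. Col5a1 was past the threshold in 5 of 8 alternatives and 2 of 6 analyses with a library left out, and Col27a1, not called by edgeR here, in 4 of 8 and 2 of 6. Col1a1 (adjusted p = 0.0181) and Col5a2 (0.00661) were called by DESeq2 alone, and Col11a1 by limma-voom alone (log2 fold change -0.27, adjusted p = 0.0400). Col1a2 was called in none of them.

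**Figure D3:**
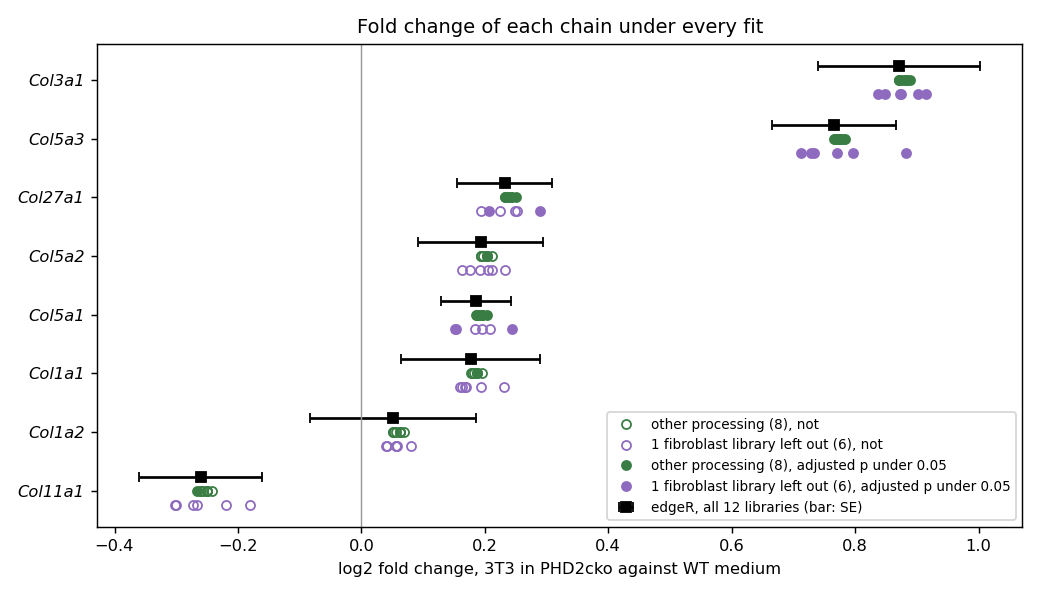
Log2 fold change of each member, fibroblasts in medium labelled PHD2cko against WT medium, in the edgeR analysis with its standard error (black), in each of 8 alternative analyses (green) and in each of 6 analyses without 1 library (purple), filled where the adjusted p was under 0.05. Points for Col3a1 stay near 0.87 and those for Col5a3 near 0.77, while those for Col1a2 lie near 0.

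The chains were also compared as shares and ratios of counts within a library. Together the 8 genes took 1.91, 1.96 and 2.10% of all counts in WT medium and 2.54, 2.62 and 2.53% in medium labelled PHD2cko. Every library in medium labelled PHD2cko was above every WT library, a difference of 0.574 percentage points (1.99 ± 0.101 against 2.57 ± 0.0507%, SD, n = 3, two-sided exact permutation test p = 0.1, the smallest that 3 against 3 allows). Shares among the members and ratios between them, given next, do not depend on how libraries are scaled. Col3a1 gave 23.4 to 23.9% of the members' counts in WT medium and 33.6 to 35.3% in medium labelled PHD2cko. The share of Col1a2 was 45.2 to 46.3% in WT medium and 37.4 to 38.2% in medium labelled PHD2cko, and that of Col1a1 23.1 to 24.0% and 20.9 to 21.9%. Col3a1, Col1a1 and Col1a2 together kept 93.0 to 93.8% in all 6 libraries.

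Counts of Col3a1 per count of Col1a1 were 1.03, 0.993 and 0.994 in WT medium and 1.54, 1.69 and 1.66 in medium labelled PHD2cko. Type III transcripts thus went from parity with Col1a1 in counts to a clear excess in every library. On the log2 scale the ratio differed by 0.69 (0.00923 ± 0.0329 against 0.70 ± 0.0721, SD, n = 3, exact permutation p = 0.1, adjusted p = 0.133 over the 4 ratios tested). Col3a1 over Col5a2, the neighbouring genes on chromosome 1, had a log2 ratio of 2.54 ± 0.0418 in WT medium against 3.22 ± 0.0347 in medium labelled PHD2cko, a difference of 0.68 with the same exact p and adjusted p. Neither ratio overlapped between the media. Col1a1 over Col1a2, the chains of type I, differed by 0.13 (-0.96 ± 0.0466 against -0.83 ± 0.0287, SD, n = 3, exact permutation p = 0.1). Col5a1 over Col5a2 had a log2 ratio of -0.78 ± 0.0372 in WT medium against -0.79 ± 0.00892 in medium labelled PHD2cko, a difference of -0.00613 (exact permutation p = 0.8), and its ranges overlapped. No design of 3 against 3 can bring these tests under 0.05.

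**Figure D4:**
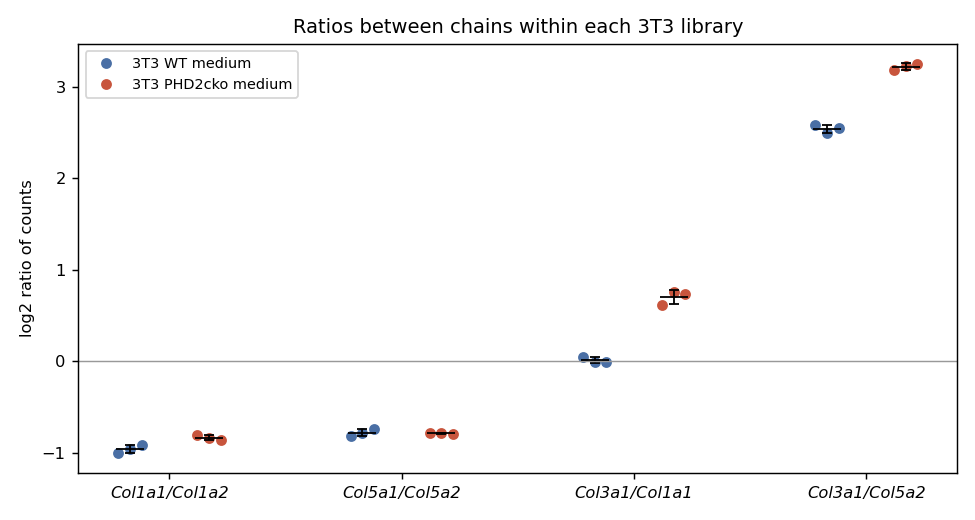
Log2 ratio of counts of 4 pairs of chains in the 6 fibroblast libraries, 1 point per library, with each group's mean and SD. Col3a1/Col1a1 and Col3a1/Col5a2 are higher in all 3 libraries in medium labelled PHD2cko by means of 0.69 and 0.68, whereas Col5a1/Col5a2 overlaps between the media.

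In the BMDMs themselves the label made no call by edgeR. There 0 of 8 members differed between BMDM libraries labelled PHD2cko and WT at an adjusted p under 0.05, where 6.73% of all genes did. Run on the 6 BMDM libraries alone, the filter kept only Col1a1, Col1a2 and Col27a1. The rest were kept for their fibroblast counts and had few BMDM counts to test, so 0 of 8 says little about them. The background of 961 genes came to 1202 higher and 1332 lower in the 6 BMDM libraries alone. It came to 261 to 332 higher and 266 to 350 lower when any 1 BMDM library was left out, lowest without BMDM WT replicate 1. At an unadjusted p under 0.05 there was 1 (Col1a2), which DESeq2 called (adjusted p = 0.00733) and limma-voom did not. Col1a2 had 11, 25 and 6 counts in the BMDM WT libraries and 25, 31 and 30 in those labelled PHD2cko, or 0.864 ± 0.588 against 1.74 ± 0.331 CPM (SD, n = 3, log2 fold change 0.98, edgeR adjusted p = 0.0957). The other members had 0 to 19 counts a BMDM library. The effect of the label in fibroblasts was then set against that in BMDMs as an interaction. By edgeR 0 of 8 members passed, against 12.3% of all genes (1756, or 997 without genes of macrophage type). This count has the same limit, as members other than Col1a1, Col1a2 and Col27a1 had too few BMDM counts. At an unadjusted p under 0.05 there was 1 (Col1a2, -0.93, adjusted p = 0.109), which DESeq2 called and limma-voom did not. For Col3a1 the difference of log2 fold changes was 0.19 (edgeR adjusted p = 0.886), with the opposite sign in limma-voom (-0.11), and its change in BMDMs rested on 1 to 13 counts a library. A difference between the cell types in the response of Col3a1 was therefore not shown.

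Other genes of fibril formation, collagen binding and collagen breakdown were listed by role, 86 in all, of which 69 were tested. Of these 10 (14.5%) were higher and 8 (11.6%) lower in medium labelled PHD2cko, beside 8.93% and 6.75% of all genes, and 51 did not pass the test. The counts of the single lists stand against the same background. Among the 10 that were higher, 2 (Lair1 and Mmp13) were of macrophage type, and the filter kept Mmp13 only for its BMDM counts. Median log2 fold changes per list, leaving the collagen members aside, ran from -0.26 to 0.24.

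Inside the cell, procollagen chains are hydroxylated and folded before export. Of 20 tested genes of procollagen folding and hydroxylation, 1 was higher and 2 lower, with a median log2 fold change of -0.06. Plod2, a lysyl hydroxylase that acts on the collagen ends, rose from 27.1 to 35.2 CPM (log2 fold change 0.37, edgeR adjusted p = 0.0176), a call lost without replicate 2 (0.0643) or 3 (0.0588) labelled PHD2cko. Its relative Plod3 fell by 0.18 (adjusted p = 0.0385) and P3h3, a prolyl 3-hydroxylase family member, by 0.25 (adjusted p = 0.00645) on the log2 scale. The call of P3h3 was lost in the fibroblast libraries alone (edgeR adjusted p = 0.0552). Calls of Plod3 were lost in 3 of 8 alternatives and without any of 4 of the 6 libraries.

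Of 4 tested genes of propeptide removal, 2 were higher and 0 lower by edgeR, with a median of 0.24. Bmp1, the protease that cuts the C-terminal propeptide, rose from 147 to 195 CPM (log2 fold change 0.41, edgeR adjusted p = 0.00102). Adamts2, which cuts the N-terminal propeptide, rose from 281 to 336 CPM (log2 fold change 0.25, adjusted p = 0.0473), a call lost without any of 4 of the 6 libraries and in the fibroblast libraries alone (0.116). Of 6 crosslinking genes, 1 was lower and 0 higher. Lox, the lysyl oxidase that starts crosslinks, fell from 6954 ± 331 to 4820 ± 305 CPM (SD, n = 3), by 0.53 on the log2 scale (edgeR adjusted p = 0.00621), and was past the threshold in all alternatives and without any 1 library. Lox thus fell while Col3a1 rose in the same libraries.

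Of 14 tested partners of fibril assembly, 4 were higher and 1 lower. Postn (periostin, a matricellular protein that binds collagen) rose from 193 to 330.5 CPM (log2 fold change 0.78, edgeR adjusted p = 2.3e-04) and Dpt (dermatopontin) from 119 to 192 CPM (0.69, adjusted p = 3.1e-04). Dcn and Lum, small leucine-rich proteoglycans that coat fibrils, were among the higher genes. Ogn, of the same class, fell from 363 to 293 CPM (-0.31, edgeR adjusted p = 0.0103), a call lost without replicate 3 labelled PHD2cko (0.0502). Of 5 FACIT collagens, which attach to fibril surfaces, 1 was lower and 0 higher. That gene, Col20a1, had 18.4 CPM in WT medium and 12.8 CPM in medium labelled PHD2cko (log2 fold change -0.52, edgeR adjusted p = 0.0440), a call lost without any of 5 of the 6 libraries, without genes of macrophage type (0.0542) and in the fibroblast libraries alone (0.0667). Of the 3 other fibrillar chains in the genome that were listed, 1 had enough reads, Col11a2, with a log2 fold change of -0.09 and no call.

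Of 10 tested genes of collagen breakdown, 2 were higher and 3 lower. Mmp9, a gelatinase that digests denatured collagen, rose from 9.42 ± 0.863 to 31.1 ± 6.33 CPM (SD, n = 3, log2 fold change 1.73, edgeR adjusted p = 2.6e-05). Its mean in BMDMs was 0.864 CPM. The log2 fold change was 1.87 without replicate 2 labelled PHD2cko, which had the lowest summed macrophage markers, and 1.57 without replicate 3, and the part of the markers in it was not tested. The other gelatinase, Mmp2, fell from 938 to 745 CPM (-0.33, adjusted p = 0.00846), and Timp2, an inhibitor of metalloproteinases that also takes part in activating it, from 1029 to 834 CPM (-0.30, adjusted p = 0.00306). The gelatinases thus moved in opposite directions. Mmp14 was also lower. Mmp13, a collagenase and the other gene that was higher, was at 0.139 CPM even in medium labelled PHD2cko and at 33.1 CPM in BMDMs. Mmp13 and Mmp8 (0.0494 CPM in medium labelled PHD2cko, 104 CPM in BMDMs) were tested only because the filter kept them for their BMDM counts. Of 9 collagen receptors, 1 was higher (Lair1, an immune cell receptor) and 0 lower.

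**Figure D5:**
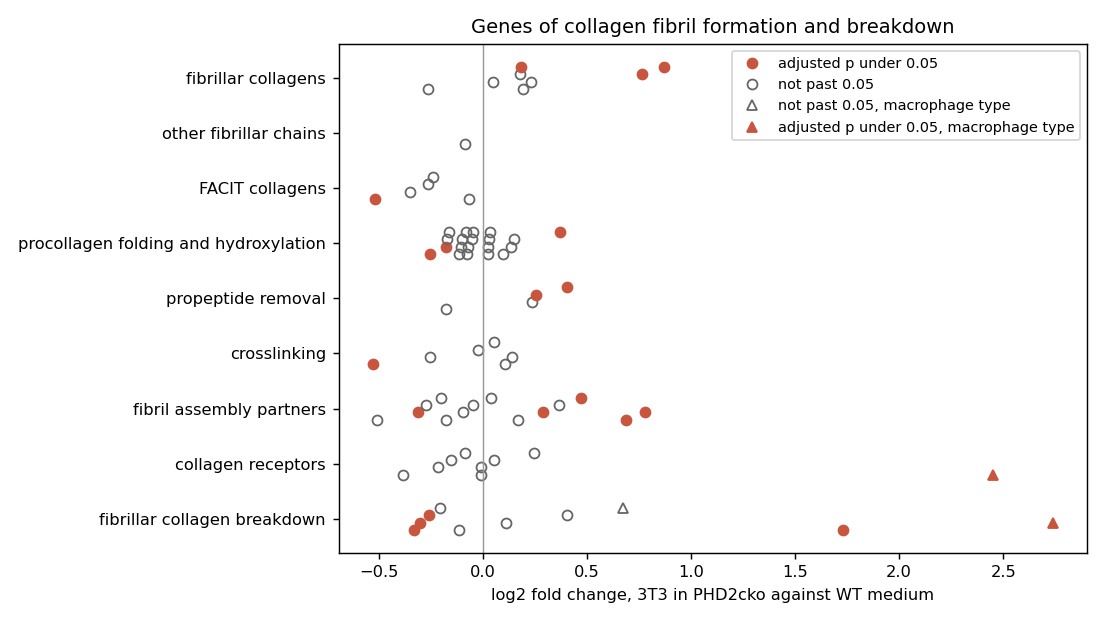
Log2 fold change in fibroblasts, medium labelled PHD2cko against WT medium, of each tested gene of the fibrillar collagens and of 8 lists of genes of fibril formation, binding and breakdown, 1 point per gene. Filled points passed an edgeR adjusted p of 0.05, triangles are genes of macrophage type, and the 2 rightmost points, Mmp13 and Lair1, are of that type.

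The members were lastly described by the mean of their patterns over the 6 fibroblast libraries. This mean of centred log2 CPM was -0.22, -0.17 and -0.03 in WT medium and 0.14, 0.17 and 0.11 in medium labelled PHD2cko. Pearson's r of a single member with this mean ran from 0.893 (Col1a2) to 0.983 (Col1a1) in 7 members and was -0.589 for Col11a1. The mean includes the member itself, which raises r. Outside the members, the genes with the most similar pattern among 9372 with at least 10 CPM were Fanci (r = 0.998), Ewsr1 (0.995), Spred1 (0.994), Hif1a (0.994) and Fancm (0.993). These r are over 6 libraries in 2 groups and describe them only, and a gene that was higher in medium labelled PHD2cko tends to score high. The log2 fold change was 0.44 for Fanci (edgeR adjusted p = 0.0105), 0.43 for Fancm (0.00222), 0.18 for Spred1 (0.0209), 0.14 for Hif1a (0.0354) and 0.10 for Ewsr1 (0.142). The calls of Spred1 and Hif1a were each lost in 3 of 8 alternatives and without any of 4 of the 6 libraries.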

How the data were processed

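The authors deposited estimated counts, made with kallisto on GRCm38 from single NextSeq 500 reads and given per gene as whole numbers, neither normalized nor filtered. The kallisto version is not given in the sources used here. The table held 32544 genes in 12 libraries, and 0 columns could not be mapped. A background allele that all mice shared is not reported here. edgeR 4.0.16 (R 4.3.3) was run on them: filterByExpr on the 4 groups kept 14285 genes and left out 18259, TMM scaled the libraries, and 1 quasi-likelihood fit over all 12 libraries gave each contrast, tested two-sided; p-values were adjusted by Benjamini-Hochberg over the 14285 genes and called under 0.05. CPM are counts over the TMM-scaled library total times 1e6. A standard error is the log2 fold change over the square root of F. Shares and log2 ratios of counts were compared by exact permutation tests. Markers were summed over plain totals. The study itself used limma-voom, an alternative here (limma 3.58.1), beside DESeq2 1.42.0 (its Wald test, and its size factors in edgeR), other filters, a replicate block, fibroblasts alone, no genes of macrophage type, and each library left out. Of these steps, only the edgeR contrasts within fibroblasts and within BMDMs were also run on simulated data.

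The members, gene lists and tests were chosen with earlier results of these data known. All members are named. From each related list, named genes are at most the 2 with the largest fold each way among those past the threshold with at least 10 CPM in a group. Others named (Dcn, Lum, Lair1, Mmp8, Mmp13, Mmp14, Col11a2) were picked with their values in view. The 5 genes of most similar pattern had the highest r. Exons come from GENCODE M21, promoter windows from RefSeq.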

Additional observations from a re-analysis of the deposited data

How the results depend on the processing

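Directions reversed only where BMDM counts of a member, or no difference of a ratio, stood behind them, and none of these values passed its test. With limma-voom the log2 fold change of Col1a1 in BMDMs was 0.15 (-0.05 in edgeR), and the difference between the cell types was -0.11 for Col3a1 (0.19) and 0.30 for Col5a3 (-1.22). With the replicate block, Col1a1 in BMDMs was at 0.00676. Over the analyses without 1 library, the log2 fold change of Col1a1 in BMDMs ran from -0.34 to 0.70, and the difference between the cell types from -0.53 to 0.51 for Col1a1 (0.23), from -0.36 to 0.70 for Col3a1 and from -1.76 to 0.77 for Col5a3, reversing without BMDM WT replicate 2 (Col1a1, Col3a1) or without replicate 2 (Col5a3) or 3 (Col3a1) of the BMDMs labelled PHD2cko. The ratio Col5a1/Col5a2 differed by 0.0124 without WT medium replicate 3 (-0.00613). With DESeq2's Wald test, 6 members were higher in fibroblasts, 1 in BMDMs, and 1 was lower in the interaction (all genes in that analysis: 1442, 525 and, in either direction, 1867), and with limma-voom 1 member was lower in fibroblasts (1126 of all genes). Without genes of macrophage type, 739 genes rather than 1276 were higher in fibroblasts and 997 rather than 1756 passed in the interaction. In the 6 libraries of a cell type alone, 566 genes were higher and 346 lower in fibroblasts, and 1202 higher and 1332 lower in BMDMs. The cause was not tested. Leaving out 1 library gave 2 to 4 members higher in fibroblasts and 0 lower, 797 to 1683 genes higher and 463 to 1074 lower there, 0 to 1 members higher in BMDMs (Col1a2 without BMDM WT replicate 2), 261 to 332 genes higher and 266 to 350 lower there, and 1272 to 2316 genes and 0 to 1 members in the interaction. The share of the members then differed by 0.533 to 0.630 percentage points, and the log2 ratios by 0.10 to 0.15 (Col1a1/Col1a2), 0.67 to 0.73 (Col3a1/Col1a1), 0.66 to 0.70 (Col3a1/Col5a2) and -0.0248 to 0.0124 (Col5a1/Col5a2). The same replicate number did not pair libraries (correlations of -0.0404 to 0.0159), so the replicate block is a mere alternative: with it 2 members, 1085 genes higher and 774 lower passed in fibroblasts, and Col5a1 did not (adjusted p = 0.0686). BMDM values rest on few reads, at 0 to 31 counts per member and library.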
